A study of Mus musculus with 4 samples.

Results

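Eicosanoids are the signalling lipids made from arachidonic acid, and 10 genes of their synthesis and turnover were followed in cardiac mesenchymal progenitors (CMPs) carrying the reprogramming factors: *Pla2g4a*, *Ptgs1*, *Ptgs2*, *Ptges*, *Ptgis*, *Ptgds*, *Hpgd*, *Alox5ap*, *Ltc4s* and *Ephx2*. They form a list of names, drawn up with earlier results of these data known, and a probe belonged to them when the gene name given for it in the array files, or an older synonym of that name, was on this list. The 10 genes were read by 13 of the 55675 probes of the array and were 10 of 22220 named genes. All 10 had a probe well above background on at least 1 array, as did 16657 of the named genes. The cells were Sca-1+ cells from the heart of adult C57BL/6 mice, grown on collagen I in DMEM/F12 with serum and, by the labels, 40 ng/ml bFGF (the study's methods give a lower concentration). Untreated CMPs, labelled as day 0, were the control, and OSKM-CMPs were CMPs given Sendai virus for Oct4, Sox2, Klf4 and c-Myc and taken at days 4, 6 and 8. By the study's methods the cells to be infected were seeded on Geltrex in growth medium. After infection they were moved to a reprogramming medium without leukemia inhibitory factor, for which the methods list no bFGF. The control had no later time point and no empty virus. The factors, the virus, the coating, the medium with its bFGF and the time in culture therefore cannot be told apart. There was 1 array per condition, and the labels do not say which cultures or animals the samples share.

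In most cells, cytosolic phospholipase A2 frees arachidonic acid from membrane lipids, and the cyclooxygenases turn it into prostaglandin H2. Terminal synthases then make prostaglandin E2, prostaglandin D2, prostacyclin or thromboxane, while 5-lipoxygenase with its activating protein opens the leukotriene branch and cytochrome P450 enzymes make epoxides that soluble epoxide hydrolase converts to diols. In the adipocyte lineage, prostaglandins are known both to promote and to restrain differentiation, depending on the product and the receptor.

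The sequences below are the first 30 bases of the array oligos behind several of the results that follow, read from the array files in lower case 5' to 3'. They are shown because each probe value given here is the signal of 1 such oligo. Both oligos of *Ptges* are included since they gave different values.
*Ltc4s*, A_55_P2015292: caaaacgctggggtgcccgcccccgaatcc
*Ephx2*, A_55_P2002572: tttttgaagcagctgattggagagtaaaga
*Ptgs1*, A_51_P279100: gagccacacttagactctttccaaagatgt
*Ptgs2*, A_51_P254855: tttttgaaaagtttgaagttagaacttagg
*Ptges*, A_55_P1974189: aaccctctgatcgcctggatacatttcctc
*Ptges*, A_55_P1974193: atgataaaggactaaacctctgaacctgta

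RefSeq promoter windows of assembly GRCm38.p6, from 250 bases before to 50 after the gene start, were given for 7 of the 10 genes. *Ephx2*, *Ptgis* and *Alox5ap* had no entry. Windows of *Ltc4s*, *Ptgs1* and *Ptgs2* are shown because these genes were higher on every OSKM array. Capitals mark matches on either strand to 4 motifs: CACGTG, an E-box that Myc can bind, CCACCC, an element of Kruppel-like factors, TTGCNNAA, a C/EBP element, and AGGTCA, a nuclear receptor half-site.
*Ltc4s*, chr11:50238483-50238782, minus strand: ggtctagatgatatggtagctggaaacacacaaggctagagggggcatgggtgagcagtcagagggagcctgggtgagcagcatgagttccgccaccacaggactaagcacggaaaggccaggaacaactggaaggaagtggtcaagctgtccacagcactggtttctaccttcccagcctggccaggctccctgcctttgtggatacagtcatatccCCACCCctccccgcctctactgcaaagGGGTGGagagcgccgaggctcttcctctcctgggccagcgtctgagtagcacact
*Ptgs1*, chr2:36230176-36230475, plus strand: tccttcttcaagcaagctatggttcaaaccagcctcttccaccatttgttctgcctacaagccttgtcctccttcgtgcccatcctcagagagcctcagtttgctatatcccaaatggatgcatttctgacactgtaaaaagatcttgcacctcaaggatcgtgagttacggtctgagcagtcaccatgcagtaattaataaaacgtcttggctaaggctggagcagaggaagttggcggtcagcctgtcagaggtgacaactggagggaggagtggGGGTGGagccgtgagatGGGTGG
*Ptgs2*, chr1:150099781-150100080, plus strand: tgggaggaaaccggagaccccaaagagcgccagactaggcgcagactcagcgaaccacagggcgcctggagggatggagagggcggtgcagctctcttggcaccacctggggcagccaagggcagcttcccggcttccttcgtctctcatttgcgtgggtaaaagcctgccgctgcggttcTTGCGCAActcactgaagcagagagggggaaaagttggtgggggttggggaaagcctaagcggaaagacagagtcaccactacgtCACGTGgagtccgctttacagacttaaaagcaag
The *Ltc4s* window held CCACCC from base -32 to -27 and, on the other strand, from -5 to 1, counted from the gene start. In *Ptgs1* this motif stood on the other strand from 28 to 33 and from 45 to 50. Neither overlapped another motif. CCACCC was present in 31.5% of all 32851 promoter windows, so a match was common, and 5 of the 8 windows of the members had one (*Pla2g4a* has 2 windows). The *Ptgs2* window held TTGCGCAA from -69 to -62, a motif found in 10.8% of all windows, and CACGTG from 17 to 22, found in 7.15%. AGGTCA, in 16.3% of windows, matched among the members only in 1 *Pla2g4a* window. These are letter matches only.

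Levels below are log2 processed Cy3 signals with the 75th percentile of each array set to 0, so a value of 1 is a signal 2 times that percentile. Each error is 1 SD from the error model of the scanner software, which covers neither cultures nor RNA preparation, and no test between conditions was possible. A gene is called higher or lower where the difference is at least 2-fold. An array had 56.6% to 59.6% of its probes well above background, no spot was saturated, and spots of probes printed 5 or more times on an array had a median SD of 0.08. *Ly6a*, which encodes the Sca-1 antigen named in the labels, had levels of 4.65 in the control and 6.69, 6.96 and 7.35 at days 4, 6 and 8, so this antigen's transcript was read on all 4 arrays. Of 7 progenitor markers, all above background on the 4 arrays, *Ly6a* and *Dcn* were higher and *Thy1* and *Eng* lower at day 8. Of 6 cardiomyocyte markers, *Tnnt2* was lower at day 8 and *Actc1* was not above background on any array. *Myh6*, *Myl7* and *Tnni3*, below background in the control, were dim at day 8, at -4.41, -3.78 and -3.43. These are at least 1.75-, 2.70- and 3.28-fold above the control. Since RNA came from whole cultures, fewer cells of a type and less RNA per cell cannot be told apart.

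At day 8, 5 of the 10 genes were higher than in the control (*Ltc4s*, *Ephx2*, *Hpgd*, *Ptgs1* and *Ptgs2*), 1 was lower (*Ptgis*), and 4 were within 2-fold. Over all 16657 genes, 14.4% were higher and 11.6% lower by the same rule. Counts were also 5 and 1 at day 4, where 12.1% of all genes were higher and 9.57% lower, and at day 6, where the shares were 13% and 11.5%. The same 6 genes were past 2-fold on all 3 days by their measured values. *Hpgd*, however, was not above background in the control, and 1 of its 2 probes was not at days 4 and 6 either. The mean of its probes therefore has no lower bound on those days. With dim signals raised to the background limit the counts were 4 and 1 on those days. Over the 10 genes the median difference from the control was 0.99, 1.08 and 1.18 at days 4, 6 and 8, against -0.03 for all genes at day 8. The day 8 median was 0.65 after normexp background correction with quantile normalization. The offset of 50 added in that correction shrinks log2 differences of dim probes by construction. *Hpgd* passed the background filter only through the OSKM arrays, and without it the medians were 0.65, 0.74 and 0.94. Of the other 9 genes, 4 were higher and 1 was lower at day 8, and among all genes well above background on the 4 arrays 9.74% were higher and 10.2% lower at day 8.

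**Figure D1:**
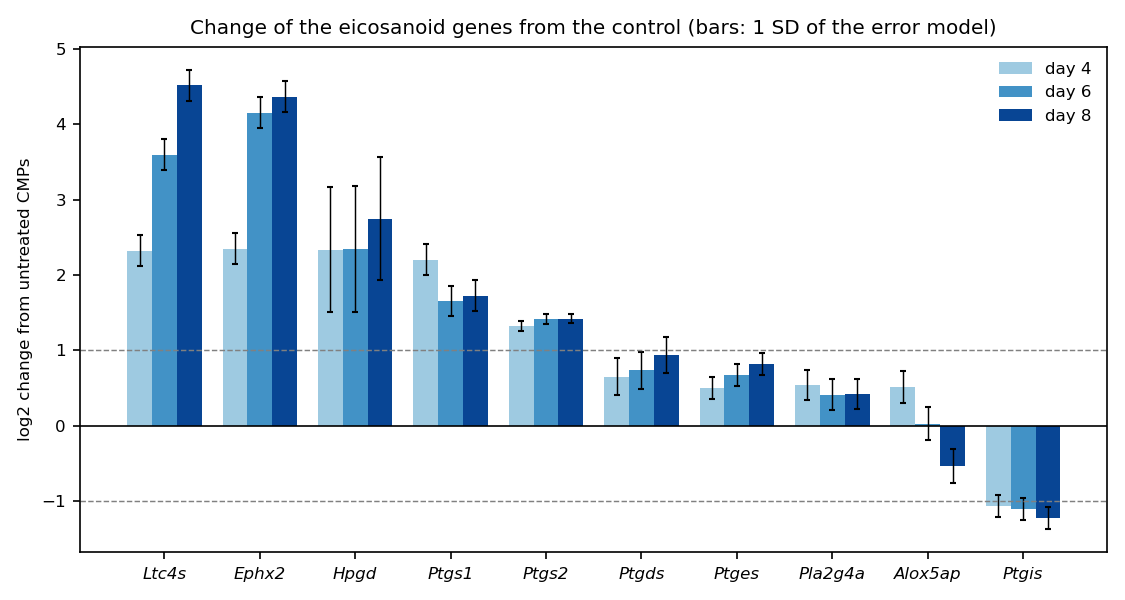
Bars give the log2 difference of each of the 10 genes from untreated CMPs at days 4, 6 and 8 (1 array each, error bars 1 SD of the scanner error model, dashed lines 2-fold), ordered by the value at day 8. *Ltc4s* and *Ephx2* reach 4.52 and 4.37 and *Ptgis* lies at -1.23; the bars of *Hpgd* start from a control level below background and are not bounds.

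The first step of the pathway differed little. *Pla2g4a*, the cytosolic phospholipase A2 that releases arachidonic acid, had levels of 2.71, 3.25, 3.12 and 3.13 in the control and at days 4, 6 and 8. The control was the lowest of the 4 arrays, by 0.54 ± 0.20, 0.41 ± 0.20 and 0.42 ± 0.20, and the OSKM arrays lay within their errors of each other. With arrays scaled to their median, where the median of all genes is -0.30 at day 8, the difference at day 8 was 0.15.

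Both cyclooxygenases, which make prostaglandin H2, were higher on all OSKM arrays. *Ptgs1*, the form present in many resting cells, had levels of 3.22, 5.42, 4.88 and 4.95, with day 4 the highest. Its differences from the control were 2.20 ± 0.20, 1.66 ± 0.20 and 1.73 ± 0.20, or 4.61-, 3.15- and 3.31-fold. Day 6 was 0.55 ± 0.20 below day 4, while days 6 and 8 differed by less than their error. *Ptgs2*, the inducible form, was printed 10 times per array and so had the smallest error. Its levels were -0.19, 1.13, 1.23 and 1.23, a difference of 1.32 ± 0.06 at day 4 and 1.42 ± 0.06 at days 6 and 8, or 2.50-, 2.68- and 2.68-fold. Almost all of that difference was in place at day 4, since day 8 exceeded day 4 by 0.10 ± 0.06. The oligo of *Ptgs1* lies at chr2:36107644-36107703 and that of *Ptgs2* at chr1:151954744-151954803 of mm9.

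**Figure D2:**
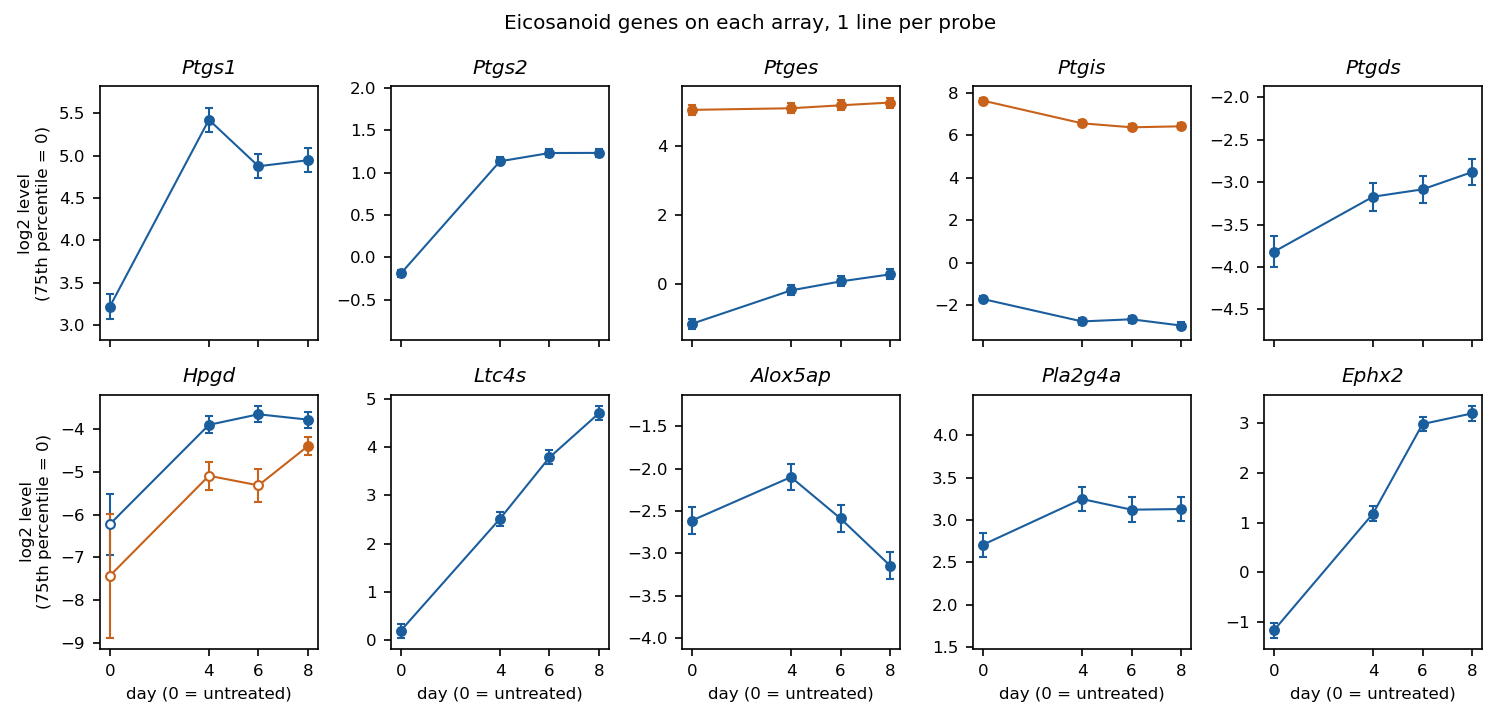
Each panel plots the log2 level (75th percentile of the array = 0) of 1 gene on the 4 arrays against the day, with 1 line per probe, error bars of 1 SD from the scanner error model and open circles where the probe was not well above background. *Ltc4s* climbs on each array from 0.19 to 4.71, *Ptgs1* peaks at day 4, and the paired probes of *Ptges* run apart while those of *Ptgis* run in parallel.

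The prostanoid synthases did not move together. *Ptgis*, prostacyclin synthase, was lower on both of its probes. The brighter probe read 7.63 in the control and 6.56, 6.38 and 6.42 at days 4, 6 and 8, and the dimmer probe, 11379 bases away on the genome, read -1.72, -2.77, -2.67 and -2.97. Their mean difference from the control was -1.06 at day 4, -1.11 at day 6 and -1.23 ± 0.15 at day 8, with the control above the OSKM arrays on both. After normexp background correction with quantile normalization the day 8 difference was -0.88, which is within 2-fold. Endothelial cells are a known source of this enzyme. Of 7 endothelial markers, all were above background in the control and 3 at day 8, 5 were lower at day 8 and none was higher, and the summed signal of the list, in multiples of the 75th percentile, was 2.03 in the control and 1.09 to 1.21 on the OSKM arrays. *Cdh5*, *Tie1* and *Emcn* were not above background on any OSKM array. Their part in the result for *Ptgis* was not tested.

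*Ptges*, the inducible prostaglandin E synthase, depended on the probe. One probe read -1.14 in the control and -0.17, 0.09 and 0.29 at days 4, 6 and 8, a difference of 1.43 ± 0.21 at day 8 with the control below all OSKM arrays. The brighter probe, 3219 bases away, read 5.04, 5.09, 5.17 and 5.25, which is 0.21 ± 0.20 at day 8. Their mean of 0.82 ± 0.14 hides this disagreement, so no direction past 2-fold is given for *Ptges*. *Ptgds*, the lipocalin-type prostaglandin D synthase, was dim, at -3.82, -3.17, -3.09 and -2.88. It lay 0.65 ± 0.25, 0.74 ± 0.25 and 0.94 ± 0.24 above the control at the 3 days, never 2-fold, and the day 8 value was 0.30 after normexp correction.

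*Hpgd*, the dehydrogenase that inactivates prostaglandins, was not well above background in the control on either probe. One probe read -6.22 there and -3.89, -3.65 and -3.77 on the OSKM arrays, all above background, which is at least 2.50-, 2.97- and 2.72-fold higher at days 4, 6 and 8. Its other probe, 458 bases away, was above background at day 8 alone, at -4.39, or at least 1.77-fold higher than in the control. The dimmest level well above background on an array lay between -5.31 and -5.13, so *Hpgd* was close to the limit of the measurement throughout. With dim signals raised to that limit the gene value at day 8 was 1.14, and after normexp correction it was 0.38, within 2-fold.

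*Ltc4s* showed the widest difference of the 10 genes. It encodes leukotriene C4 synthase, which joins glutathione to leukotriene A4, and its oligo lies at chr11:50049974-50050031 of mm9, on the minus strand. Levels ran 0.19, 2.51, 3.79 and 4.71 from the control to day 8, each array lying above the one before. These are differences of 2.32 ± 0.20, 3.60 ± 0.20 and 4.52 ± 0.20, or 5.0-, 12.1- and 22.9-fold. Steps from day 4 to day 6, 1.28 ± 0.20, and from day 6 to day 8, 0.92 ± 0.20, both exceeded 2 times their error. Of 16657 genes, 187 had a wider rise at day 8. *Alox5ap*, the 5-lipoxygenase activating protein and a member of the same protein family, took another course. It was dim, at -2.61, -2.10, -2.59 and -3.14. It stood 0.51 ± 0.21 from the control at day 4, 0.02 ± 0.22 at day 6 and -0.53 ± 0.22 from it at day 8. The span from day 4 to day 8 was -1.04 ± 0.22, just past 2-fold, but within 2-fold after normexp correction.

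Mast cells, macrophages and platelets are known sites of leukotriene or thromboxane synthesis. Of 9 mast cell markers, *Cpa3*, *Ms4a2*, *Fcer1a* and *Cma1* were not above background on any array. Among the other 5, *Hdc* was higher at day 8 (-2.91 in the control, 2.08 at day 8), *Mcpt4* and *Kit* were lower, and the median of the 5 was -0.63. The summed signal of the list went from 2.83 to 5.07, most of it *Hdc* at day 8. Of 12 macrophage markers, 11 were above background in the control and 8 at day 8. Macrophage list signal stayed between 2.29 and 2.72 on the 4 arrays. At day 8, 1 marker was higher and 4 lower by measured values, but 0 and 1 with dim signals raised to the background limit. Among platelet markers *Pf4* was at 3.31 in the control and between -1.39 and -0.79 on the OSKM arrays, whereas *Itga2b*, above background on all 4, was 3.26-, 3.29- and 2.41-fold higher at days 4, 6 and 8. *Ppbp* and *Gp9* were not above background on any array, and the summed signal of the list, nearly all of it *Pf4* in the control, was 10.2 there against 0.70 to 0.89 later. Of 6 leukocyte markers *Coro1a* was the 1 past 2-fold at day 8, and *Ptprc* was at -4.72 in the control and -4.70 at day 8. Their part in the results for *Ltc4s*, *Alox5ap* and *Ptgs1* was not tested.

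*Ephx2*, soluble epoxide hydrolase, was close to *Ltc4s* in size. Its levels were -1.17, 1.18, 2.99 and 3.20, and its oligo lies at chr14:66703214-66703273 of mm9. Relative to the control these were 2.35 ± 0.21, 4.16 ± 0.21 and 4.37 ± 0.21, or 5.10-, 17.8- and 20.7-fold. The step from day 4 to day 6 was 1.80 ± 0.20, whereas days 6 and 8 differed by 0.21 ± 0.20. The last step, from day 6 to day 8, was thus within about 1 error for *Ephx2* and beyond 2 times its error for *Ltc4s*. Across the 10 genes, *Ltc4s* and *Ephx2* were the 2 higher at day 8 than at day 4 and *Alox5ap* the 1 lower, where 4.92% of all genes were higher and 4.1% lower. Between days 4 and 6 the same *Ltc4s* and *Ephx2* were higher and none was lower (2.83% and 2.64% of all genes). Between days 6 and 8 none of the 10 passed 2-fold (2.43% and 1.01%).

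Adipocyte markers were also higher. At day 8 all 12 markers of the adipocyte list had measured differences past 2-fold, with a median of 4.81, and 11 of 12 did with dim signals raised to the background limit (*Lep* was at least 1.20-fold higher). At day 4 *Lpl* was 3.08-fold lower. Their summed signal was 13.1, 54.9, 198 and 422 times the 75th percentile in the control and at days 4, 6 and 8. *Adipoq*, *Plin1*, *Cfd*, *Cidec* and *Lep* were not above background in the control. The summed list and *Ltc4s* read above the previous array each time, and *Ephx2* did so to day 6, with 0.21 ± 0.20 after it. *Ptgs1*, *Ptgs2* and *Ptgis* had most of their difference by day 4, and *Ptgis* was lower. By measured values 10 of the 12 markers were higher at day 6 than at day 4, and 7 at day 8 than at day 6. The others included *Pparg*, at 0.98, 4.63, 4.83 and 4.82 from the control to day 8. *Cebpa*, at -0.88, 1.43, 2.53 and 2.28, was not higher at day 8 than at day 6. The part of these markers in the results was not tested.

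**Figure D3:**
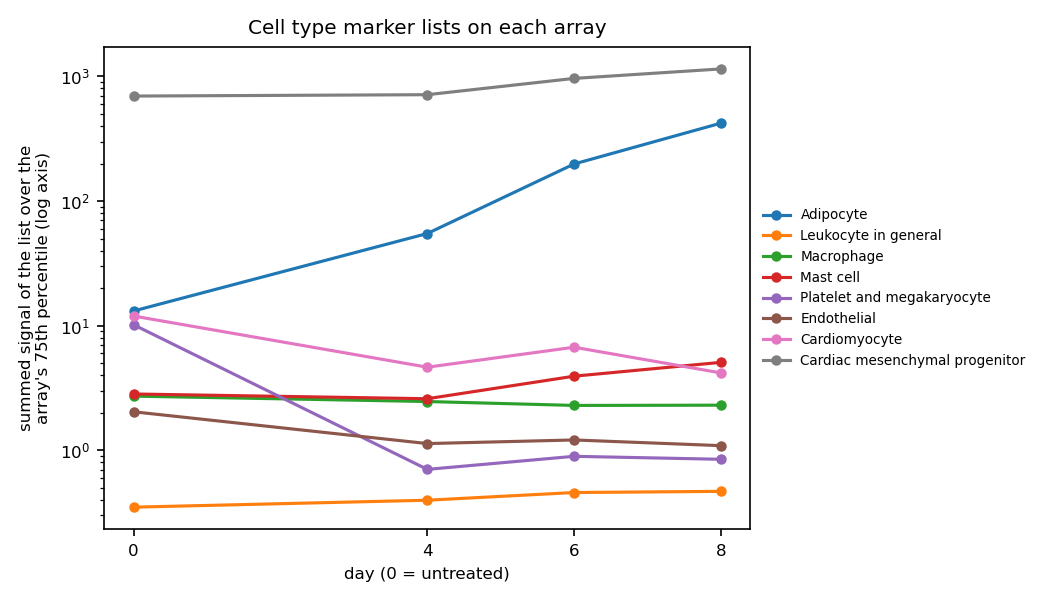
Lines give the summed signal of 8 cell type marker lists on each array, as a multiple of the 75th percentile of the array (log axis), against the day. The adipocyte list goes from 13.1 to 422, the platelet list drops from 10.2 to 0.70 at day 4 with *Pf4* while *Itga2b* of that list is higher, and the progenitor list is the brightest on all 4 arrays.

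The pathway around the 10 genes was described with 71 further genes in 8 roles, of which 53 were well above background on at least 1 array. At day 8, 20 of the 53 were higher than in the control and 4 lower (37.7% and 7.55%, against 14.4% and 11.6% of all genes), with a median of 0.54. Several passed the filter only because they were bright on the OSKM arrays. Among the 38 that were above background on all 4 arrays, 11 were higher and 2 lower, with a median of 0.32, where the shares of all such genes were 9.74% and 10.2%. The roles below hold few genes each, and their counts are read against these shares. With dim signals raised to the background limit, 19 of the 53 were higher and 4 lower, with a median of 0.52. Day 4 gave 17 higher and 4 lower of the 53, where 12.1% of all genes were higher and 9.57% lower. Day 6 gave 20 higher and 5 lower, where the shares were 13% and 11.5%. Among the 38 above background on all 4 arrays the counts were 8 and 2 at day 4 and 11 and 2 at day 6. The share of all such genes was taken at day 8 only.

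Phospholipases counted 3 higher and 1 lower of 11, and 1 and 0 of the 6 above background on all 4 arrays. *Pla2g7*, which encodes the plasma platelet-activating factor acetylhydrolase, had the mean levels -5.34, 0.68, -1.03 and -1.61, with 1 of its 2 probes below background in the control. It peaked at day 4 as *Ptgs1* did. The secreted *Pla2g2e* was at -3.08, -2.97, -1.99 and -0.26, which is 7.05-fold higher at day 8. *Pla2g4c* was at least 2.70-fold higher at day 8, with the control below background, and *Pla2g2a* was at least 2.79-fold lower, with day 8 below background. None of the 5 further prostanoid synthases was higher. *Tbxas1*, thromboxane synthase, was above background in the control alone, at -4.30, and was at least 2.02-fold lower at day 8, and the other 4, among them *Ptges2* and *Ptges3*, lay between -0.28 and -0.04.

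Turnover and transport gave 3 higher and 0 lower of 7, all measured on the 4 arrays. *Akr1c18*, an aldo-keto reductase of the steroid and prostaglandin family, read -2.88, 1.58, 2.84 and 3.54, or 85.5-fold higher at day 8. Carbonyl reductase *Cbr2* read -0.95, 2.16, 0.89 and 1.13, and the exporter *Abcc4* read 0.32, 1.83, 1.78 and 2.02. The uptake transporter *Slco2a1*, at 3.85, 5.35, 4.91 and 4.82, was higher at days 4 and 6 and within 2-fold at day 8.

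The receptors went both ways, with 2 higher and 2 lower of 7 prostanoid receptors. Among the 4 above background on all 4 arrays, 0 were higher and 2 lower. *Ptgfr*, the receptor of prostaglandin F2alpha, was not above background in the control and read -0.97, -0.23 and 0.22 on the OSKM arrays, at least 18.9-, 31.8- and 43.4-fold higher. *Ptger3*, a prostaglandin E2 receptor, was also below background in the control and at least 5.71-fold higher at day 8. By contrast, *Ptger4*, another receptor of the same ligand, was at 1.61 in the control and at -3.12, -3.38 and -2.99 later, 24.2-fold lower at day 8. *Ptger1* was at -0.13, -0.19, -1.22 and -1.47. The prostacyclin receptor *Ptgir*, whose ligand is made by the enzyme of *Ptgis*, was at 1.96, 1.18, 1.36 and 1.26, within 2-fold throughout.

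In the leukotriene branch 6 of 8 further enzymes were higher and 0 lower. Among the 6 above background on all 4 arrays, 4 were higher and 0 lower. These were *Mgst2*, *Mgst3*, *Mgst1* and *Dpep1*, so that count rests mostly on microsomal glutathione transferases. At day 8 *Mgst3*, *Mgst1* and *Dpep1* were 4.68-, 2.59- and 2.53-fold higher. *Mgst2*, a microsomal glutathione transferase that can also make leukotriene C4, read -2.43, 1.32, 1.02 and 1.36, or 13.8-fold higher at day 8, and so was near its day 8 level at day 4, unlike *Ltc4s*. *Alox5*, 5-lipoxygenase itself, was below background in the control and at -4.27, -4.37 and -3.89 later, at least 2.50-fold higher at day 8. *Ggt5*, which processes leukotriene C4 to D4, was 8.46-fold higher on the mean of 3 probes, but these gave 4.61, 3.86 and 0.77 and 1 was below background in the control. *Lta4h*, which makes leukotriene B4 from the same precursor, was at 3.28, 3.24, 3.00 and 2.88. Of the receptors, *Ltb4r1* was 2.24-fold higher at day 8, *Ltb4r2* differed by -0.19 ± 0.21, and the cysteinyl leukotriene receptors *Cysltr1* and *Cysltr2* were not above background on any array.

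Other lipoxygenases gave 3 higher of 4 by measured values, 2 with dim signals raised to the background limit and 1 of the 1 above background on all 4 arrays. *Aloxe3* was at least 5.69-fold higher at day 8 and *Alox12e* at least 1.85-fold, both from below background, and the 2 probes of *Alox12b* disagreed, at -0.03 and 2.60. Among the genes listed as epoxygenases and epoxide hydrolases 2 of 9 were higher, and 1 of the 8 above background on all 4 arrays. That list also held *Cyp4f13*, *Cyp4f16*, *Cyp4f17*, *Cyp4f18* and *Cyp4a10*, of a fatty acid hydroxylase family rather than epoxygenases. All of these were within 2-fold at day 8, so the count is diluted by them. *Cyp2c44*, an epoxygenase, was at least 6.77-fold higher at day 8, and *Cyp2j9* was 2.14-fold higher, while *Ephx1*, the microsomal epoxide hydrolase, read 6.51, 6.14, 6.28 and 6.39 and so did not share the course of *Ephx2*.

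**Figure D4:**
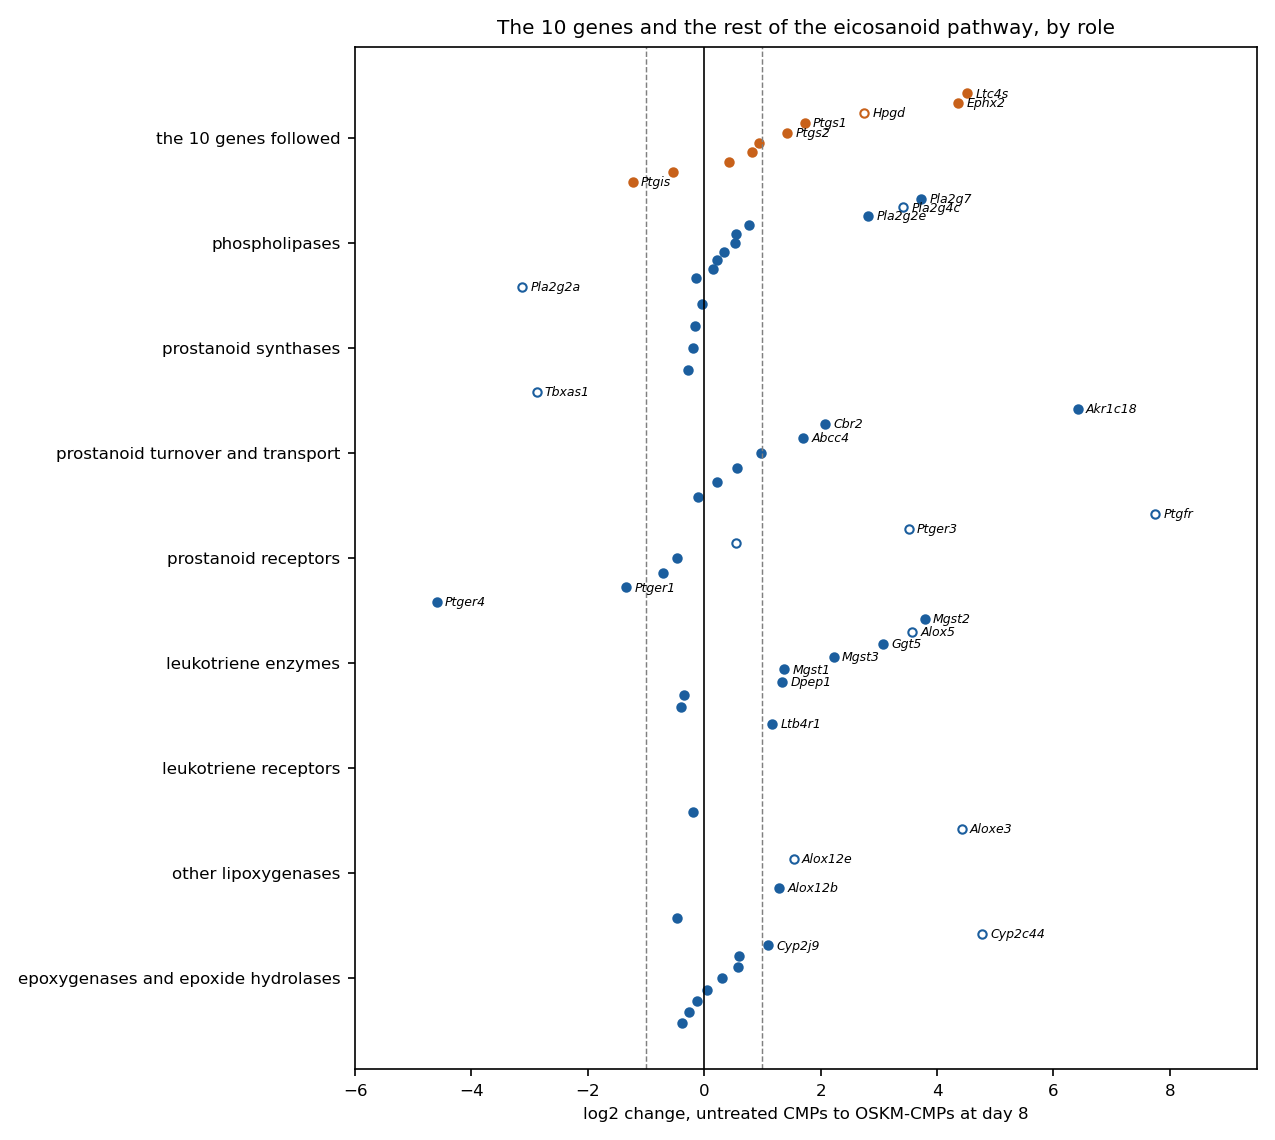
Points give the log2 difference between untreated CMPs and OSKM-CMPs at day 8 for the 10 genes (orange) and 53 further pathway genes (blue) by role, with open points where the gene was not above background on 1 of these arrays and dashed lines at 2-fold; genes past 2-fold are named. Leukotriene enzymes lie mostly to the right, the further prostanoid synthases near 0 apart from *Tbxas1*, and prostanoid receptors on both sides.

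For *Ltc4s*, *Ephx2*, *Ptgs1* and *Ptgis*, past 2-fold and above background on all 4 arrays, the 3 genes with the nearest course were sought among 13759, by the Euclidean distance between the log2 differences at days 4, 6 and 8. *Ltc4s* had few close neighbours: *Sema3c* at 0.20, *Prr15* at 0.21 and *Cfb* at 0.58, with 2 genes within 0.5. *Ephx2* likewise had 2 within 0.5, *Sult1a1* at 0.37 and *C3* at 0.47, followed by *C2* at 0.505. The course of *Ptgs1* was nearest to *Slc22a23*, *S100a14* and *Mamdc4*, with 65 genes within 0.5. *Ptgis* was nearest to *Sh3bp5*, *Pgp* and *Vdac2*, among 555 within that distance. Distances were not scaled by the size of the difference, and few genes differ as widely as *Ltc4s* and *Ephx2*. Counts within 0.5 therefore follow that size in part and do not measure how rare a course is. Distances describe likeness of course on these arrays only.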

How the data were processed

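Untreated CMPs and OSKM-CMPs at days 4, 6 and 8 were each hybridised to 1 Agilent single-colour array (250 ng RNA). The authors deposited scanner files with a processed, background-subtracted Cy3 intensity for each spot, its error and its flags. The file headers name Feature Extraction 10.7.3.1, whereas the labels name 9.5.3. They also deposited normalized log2 values, which equal the log2 processed intensity minus a constant per array and served as an alternative. Here, control and outlier spots were left out, log2 intensities of a probe's spots were averaged and the 75th percentile of the array (388.5 to 411.0) was subtracted. Of 55675 probes, 35540 were well above background on at least 1 array. Probes were named through RefSeq by accession (26759), symbol (3819) or synonym (639), and a gene took the mean of its probes. "At least" folds are set against the lowest signal well above background on the dim array, or the probe's own if higher. Single arrays limit the precision and allowed no test. Oligo positions are those of the files (mm9) and exon annotation was not used here.

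The genes and lists were chosen with earlier results of these data known. Named pathway genes were, per role, up to 3 in each direction with the widest day 8 difference past 2-fold and the same direction on all days; *Slco2a1*, *Ptgir*, *Lta4h*, *Ephx1*, *Ptges2*, *Ptges3*, *Ltb4r2*, *Cysltr1* and *Cysltr2* were added after their values were seen. For each member past 2-fold and above background on all arrays, the 3 genes of nearest course were also taken; those of *Ptgs2* are not reported here. Alternatives were quantile normalization, normexp (offset 50) with quantile normalization, array medians with and without the shift of all genes taken out, and the authors' values. Others were no filter, a filter on all 4 arrays, a floor, the brightest probe, and 1.5- and 3-fold. The pipeline was tested on simulated data. Python 3.11.15, numpy 2.4.6, pandas 2.3.3, R 4.3.3 and limma 3.58.1 were used.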

Additional observations from a re-analysis of the deposited data

Results flagged for a closer look

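*Alox5ap* lay on opposite sides of the control at different times: 0.5124 ± 0.215 at day 4 and -0.5309 ± 0.224 at day 8, on the log2 scale with errors from the scanner error model (1 array each). Both exceeded 2 times their error in the main setting. After normexp correction the day 8 value was -0.37, which does not exceed 2 times that error. It was -0.78 with quantile normalization and -0.80 with array medians. The difference was not tested.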

How the results depend on the processing

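Counts of the 10 genes past 2-fold stayed within 1.5 times the main count under all alternatives run, and no direction was reversed. They ranged from 4 to 8 genes at day 8, with normexp correction and a 3-fold rule both giving 4 higher and 0 lower. Of 89 gene values at day 8 under the alternatives, 71 moved by less than their error and 18 by more. Many of the 71 could not move, by construction. A filter or a floor leaves a gene above background on all 4 arrays as it was, and so does the brightest probe for a gene with 1 probe. Array medians with the shift of all genes taken out return the main values, and the authors' values differ by a constant per array. The median of the 10 genes at day 8, 1.18, became 0.65 with normexp correction and 0.91 with array medians. Array medians put the median of all genes at -0.30, against -0.03 in the main setting. The median of the 10 genes became 0.94 with probes above background on all 4 arrays and 1.04 with a floor. The median of the pathway genes, 0.54, became 0.28 with normexp correction, 0.28 with array medians and 0.31 with no filter. Their count of 24 past 2-fold became 15 (13 higher, 2 lower of 40) with probes above background on all 4 arrays and 16 with normexp correction, the former by construction with fewer genes. With the shift of all genes taken out, array medians gave 1.18 and 0.54 again, so that shift makes up their move. The value of 0.94 is the median without *Hpgd*. For the other moves the cause was not tested. *Hpgd* was below background in the control, which limits it to bounds. No array could be left out, since each condition has 1. No paired analysis was possible because the labels give 1 sample per condition, which leaves nothing to pair.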
